A study of Homo sapiens with 6 samples.

Results

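The APOBEC3 cytidine deaminases and the uracil-DNA glycosylase UNG were followed in Raji cells, an established human B cell line derived from Burkitt's lymphoma, a tumour related to germinal centre cells. They comprise 8 of the 23459 genes in the deposited count table: APOBEC3A, APOBEC3B, APOBEC3C, APOBEC3D, APOBEC3F, APOBEC3G, APOBEC3H and UNG, each found by its Entrez identifier. RNA-seq had been run on 3 IRF4-overexpressing libraries, from Raji cells given human IRF4 cDNA by lentivirus, and on 3 control libraries, from Raji cells given the empty vector. IRF4 is known for its part in B cell activation and in the making of plasma cells. Both groups were infected for 5 days and then kept for 7 days in 3 µg/ml puromycin, so every library comes from infected, drug-selected cells of 1 line. The labels name neither the promoter that drove the cDNA nor whether the replicates were separate infections, so p-values reflect how far these libraries differ, which can be technical variation alone.

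APOBEC3 enzymes convert cytosine to uracil in single-stranded DNA and thereby restrict retroviruses and mobile elements, and several of their genes are known to respond to interferon. Their genes lie side by side on human chromosome 22 and arose by duplication, so they share much sequence. UNG removes uracil from DNA and starts base excision repair. In germinal centre B cells it acts on uracils in the immunoglobulin genes during class switching and somatic hypermutation.

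The targeted gene followed the labels. IRF4 had 5162, 4462 and 6054 counts in IRF4-overexpressing replicates 1, 2 and 3, against 41, 37 and 50 in control replicates 1, 2 and 3 (log2 fold change 6.72, SE 0.18, adjusted p by edgeR = 3.79e-05). Library totals were 27681979 to 46210702 counts. The libraries also differed within groups along a shared axis, the first principal component of log2 CPM around the group means, which held 74.3% of that variance. IRF4-overexpressing replicate 1 with control replicates 2 and 3 lay on one side, called side 1, and IRF4-overexpressing replicates 2 and 3 with control replicate 1 on the other, side 2. CPM is the usual scaling of a count by the library's size, here adjusted by TMM. B cell markers were abundant in every library, with 8 of 8 tested, 0 called by edgeR (2 at an unadjusted p under 0.05; 1 higher by DESeq2 and 0 by limma-voom) and a summed 2417 to 2534 CPM in IRF4-overexpressing libraries and 2346 to 2491 CPM in control libraries.

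Among these genes, APOBEC3H was the one that passed the test. It was about 7-fold higher in IRF4-overexpressing libraries while staying weakly expressed, with 2 to 6 counts per control library, and it entered the test only through its level in the IRF4-overexpressing group. APOBEC3G was higher in all 3 IRF4-overexpressing libraries, 1.35-fold on average, short of the threshold. APOBEC3C averaged less than its control level but with overlapping groups. UNG, the most abundant of the 8, differed by less than the spread between replicates, and APOBEC3A was listed at 0 throughout. By edgeR's quasi-likelihood test with Benjamini-Hochberg adjustment over the 12079 genes tested, 1 of the 7 tested members was higher and 0 were lower at an adjusted p under 0.05, the 1 being APOBEC3H with that limit. Over all genes tested, 3.16% were called, 2.98% higher and 0.182% lower, and 19.5% had an unadjusted p under 0.05. With 1 call among 7 the members' share cannot be read against these.

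APOBEC3H (Entrez 164668) encodes an APOBEC3 protein with a single deaminase domain, whose common human variants differ in protein stability. It had 23, 26 and 45 counts in IRF4-overexpressing replicates 1, 2 and 3, against 6, 3 and 2 in control replicates 1, 2 and 3. In CPM this was 0.669, 0.702 and 0.932 in IRF4-overexpressing libraries and 0.149, 0.112 and 0.0547 in control libraries. Every IRF4-overexpressing library was above every control library, with a gap wider than the range of either group. The means were 0.768 ± 0.144 CPM in IRF4-overexpressing libraries and 0.105 ± 0.0477 CPM in control libraries (SD, n = 3 each), a log2 fold change of 2.83 (SE 0.37, 95% interval 1.95 to 3.71, adjusted p by edgeR = 0.0113). Summed over libraries, 94 counts stood against 11, a ratio of rates of 7.40 with an exact 95% counting interval of 3.95 to 15.3, which covers counting error only.

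The gene passed the filter on low counts, 10 counts or about 0.271 CPM at the median depth in 3 libraries, only through the IRF4-overexpressing group, and a gene that passes in this way had to differ. Where 1 CPM in 3 libraries was asked for, it was not tested. With no filter on low counts it was tested among 17362 genes, with a log2 fold change of 2.81 (adjusted p by edgeR = 0.00820). The call was lost without IRF4-overexpressing replicate 3 (adjusted p by edgeR = 0.0501) and without control replicate 2 (adjusted p by edgeR = 0.0682), while the log2 fold change stayed between 2.50 and 3.22 in the 6 fits that leave out a library. Within side 1 of the library axis the log2 ratio was 3.01, and within side 2 it was 2.45.

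The start of APOBEC3H is shown because it is the member that passed the test. The window of 250 bases before the RefSeq start, on the plus strand of GRCh38.p14 at chr22:39096994-39097243, is printed in lower case because it held none of the motifs searched there.

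APOBEC3H upstream: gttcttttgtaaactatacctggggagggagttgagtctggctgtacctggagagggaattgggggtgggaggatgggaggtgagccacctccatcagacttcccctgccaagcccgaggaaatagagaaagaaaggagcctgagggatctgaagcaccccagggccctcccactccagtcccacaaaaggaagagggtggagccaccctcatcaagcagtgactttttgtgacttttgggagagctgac

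The motifs, each searched on both strands, were the core of the interferon-stimulated response element (GAAA, any 2 bases, GAAA), the composite element of ETS and IRF factors (GGAA, any 2 bases, GAAA) and the octamer (ATGCAAAT). Among 34943 RefSeq promoter windows of this length, 3.02%, 2.41% and 1.63% held them. A shorter form chosen after these results were seen, AAANNGAAA, is contained in every match of the response element core. It began at base 28 of APOBEC3H, with the start itself counted. The stretch around it, chr22:39097261-39097290, is printed with the match in capitals. The shorter form also occurred in 10.5% of all windows that extend 50 bases past the start.

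APOBEC3H downstream: agagctgccaAAAGTGAAActtagtgcctc

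RefSeq's table gave windows for APOBEC3H and for 2 starts of UNG. Neither UNG window held any of these motifs, the shorter form included.

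**Figure D1:**
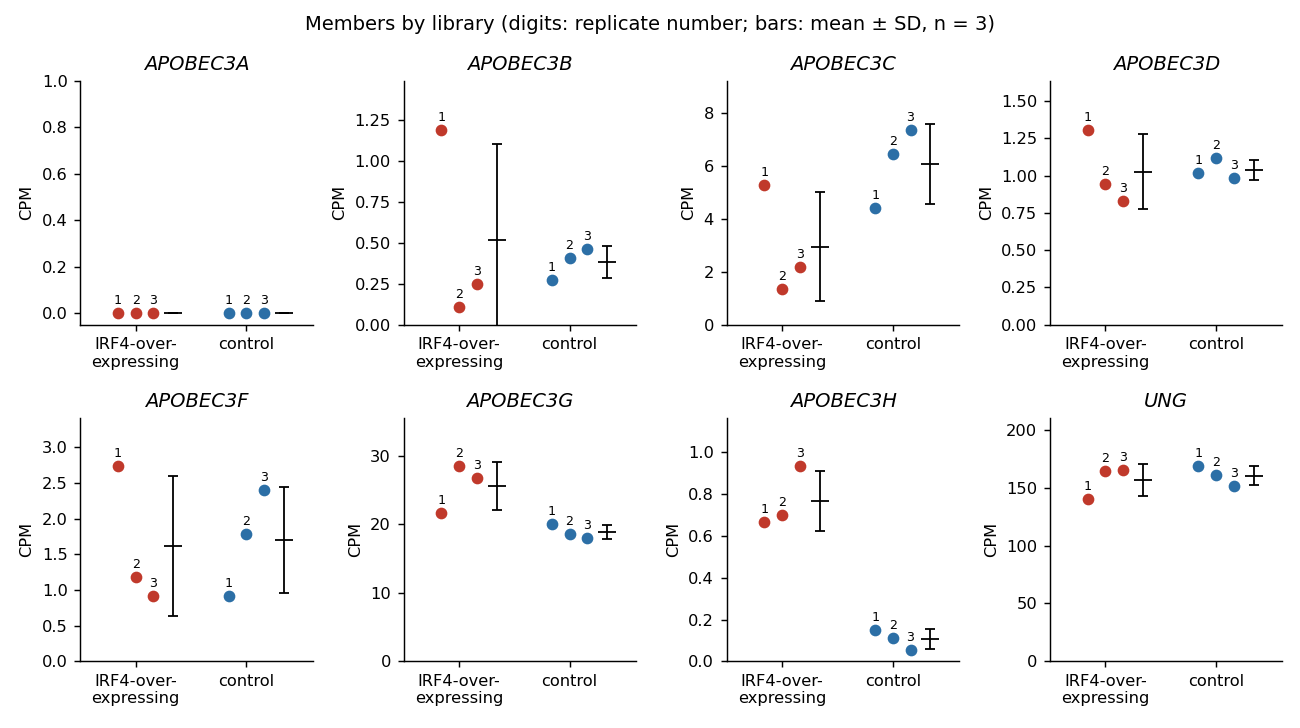
CPM (vertical axis, linear, a scale per gene) of the 8 genes in each library, with IRF4-overexpressing libraries in red and control libraries in blue, digits for replicate numbers, and mean ± SD (n = 3) in black; the lower error bar of APOBEC3B is cut at 0. APOBEC3G and APOBEC3H are the genes whose groups do not overlap, and APOBEC3A is at 0 in all 6 libraries.

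APOBEC3G (Entrez 60489) is the family member that blocks HIV lacking the viral protein Vif. It was at 21.6, 28.4 and 26.7 CPM in replicates 1, 2 and 3 of the IRF4-overexpressing group, against 20.02, 18.6 and 18.0 CPM in replicates 1, 2 and 3 of the control group. The groups did not overlap, but the gap between IRF4-overexpressing replicate 1 and control replicate 1 was small. The means were 25.6 ± 3.55 CPM in IRF4-overexpressing libraries and 18.9 ± 1.02 CPM in control libraries (SD, n = 3 each), a 1.35-fold difference that did not pass (log2 fold change 0.44, SE 0.13, 95% interval 0.13 to 0.74, adjusted p by edgeR = 0.145). Groups that did not overlap were found for APOBEC3G and APOBEC3H among the 7 tested members, both higher, against 13.5% of all genes tested that were higher without overlap and 11.9% that were lower. For APOBEC3H this was set by the filter, which it passed only through the IRF4-overexpressing group. With 7 tested members the number cannot be read against these shares. APOBEC3G passed when the score on the library axis was a term (adjusted p by edgeR = 1.69e-04), where p-values are too small because the axis was read from the same counts. It also passed without IRF4-overexpressing replicate 1 (adjusted p by edgeR = 0.00215), a fit in which both remaining libraries of that group share a side with control replicate 1. With the axis term 2606 of all 12079 genes tested were called higher and 3295 lower. Without IRF4-overexpressing replicate 1 the numbers were 2436 and 3071 of 12226, so a call in either fit does not set APOBEC3G apart. Within side 1 the log2 ratio was 0.24, and within side 2 it was 0.46.

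APOBEC3C (Entrez 27350), a protein with a single deaminase domain that acts on LINE-1 elements, was at 5.26, 1.35 and 2.20 CPM in replicates 1, 2 and 3 of the IRF4-overexpressing group, against 4.41, 6.44 and 7.36 CPM in replicates 1, 2 and 3 of the control group. IRF4-overexpressing replicate 1 lay above control replicate 1, so the groups overlapped, while the other IRF4-overexpressing libraries were below all control libraries. The means were 2.94 ± 2.06 CPM in IRF4-overexpressing libraries and 6.07 ± 1.51 CPM in control libraries (SD, n = 3 each; log2 fold change -1.06, SE 0.47, 95% interval -2.18 to 0.07, adjusted p by edgeR = 0.272). Within each side of the library axis, where 1 group has a single library, the log2 ratio was -0.39 (side 1) and -1.31 (side 2). With the axis score as a term the log2 fold change was -1.20, which passed (adjusted p by edgeR = 1.62e-05), and without IRF4-overexpressing replicate 1 it was -1.76, which also passed (adjusted p by edgeR = 0.00135). Both of these p-values carry the limits given for APOBEC3G, including the large numbers of genes called in those fits. Without any other library the log2 fold change ran from -1.24 to -0.70 and did not pass.

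APOBEC3B, APOBEC3D and APOBEC3F carry a further deaminase domain each. APOBEC3B (Entrez 9582), a nuclear enzyme linked to mutation in several cancers, was at 1.19, 0.108 and 0.249 CPM in replicates 1, 2 and 3 of the IRF4-overexpressing group, against 0.274, 0.409 and 0.465 CPM in replicates 1, 2 and 3 of the control group. IRF4-overexpressing replicate 1, with 41 counts, was above all other libraries, and the other IRF4-overexpressing libraries, with 4 and 12 counts, were below all control libraries. Its log2 fold change of 0.38 (SE 0.81, adjusted p by edgeR = 0.780) thus rests on 1 library, and without it the value was -1.02 (adjusted p by edgeR = 0.117). Within side 1 the log2 ratio was 1.45, and within side 2 it was -0.62. The direction also differed by limma-voom and with the axis term.

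APOBEC3D (Entrez 140564), which adds to the restriction of HIV in T cells, was at 0.829 to 1.31 CPM in IRF4-overexpressing libraries and 0.985 to 1.12 CPM in control libraries, and the control range lay inside the other. APOBEC3F (Entrez 200316), a further restriction factor for HIV, was at 2.73, 1.19 and 0.912 CPM in replicates 1, 2 and 3 of the IRF4-overexpressing group, against 0.921, 1.79 and 2.41 CPM in replicates 1, 2 and 3 of the control group. Its groups overlapped over nearly their whole range. Log2 fold changes were -0.03 for APOBEC3D (SE 0.22, 95% interval -0.55 to 0.50, adjusted p by edgeR = 0.949) and -0.10 for APOBEC3F (SE 0.50, 95% interval -1.28 to 1.09, adjusted p by edgeR = 0.915). The interval for APOBEC3F leaves room for a change of 2-fold in either direction.

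**Figure D2:**
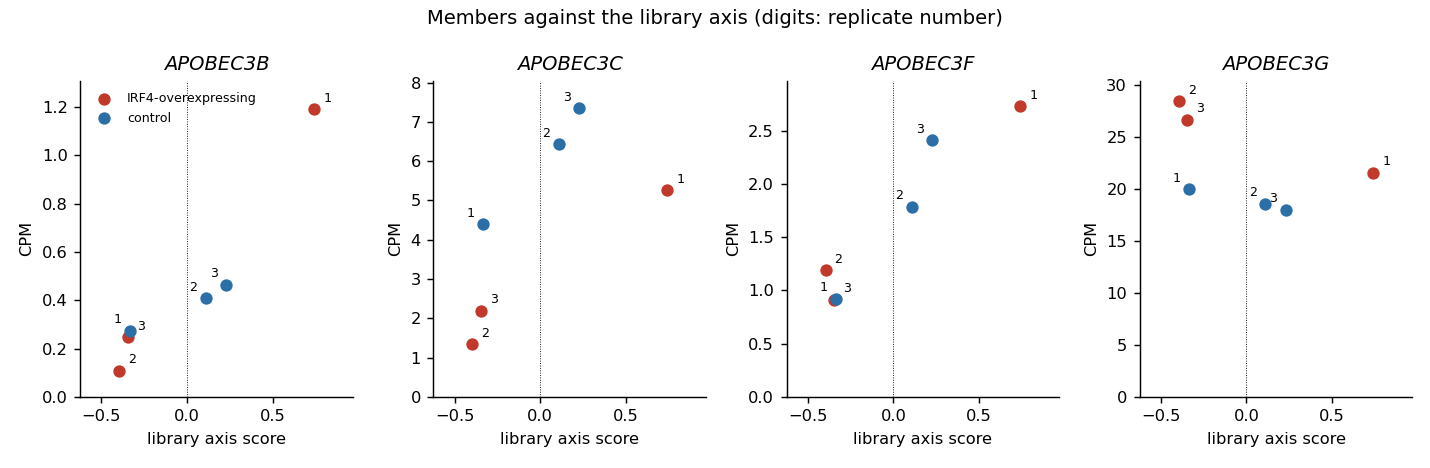
CPM (vertical axis) of 4 APOBEC3 genes against the score of each library on the axis shared within groups (horizontal axis, no unit), with IRF4-overexpressing libraries in red, control libraries in blue and replicate numbers as digits. APOBEC3B, APOBEC3C and APOBEC3F are higher in the 3 libraries right of the dotted line at 0 than in the 3 left of it, and APOBEC3G is not separated by that line.

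APOBEC3B, APOBEC3C and APOBEC3F thus had groups that overlapped and sides of the library axis that did not. Each was higher in all 3 libraries of side 1 than in any of side 2: APOBEC3B at 0.409 to 1.19 CPM against 0.108 to 0.274, APOBEC3C at 5.26 to 7.36 CPM against 1.35 to 4.41, and APOBEC3F at 1.79 to 2.73 CPM against 0.912 to 1.19. UNG showed the opposite, with 140.4 to 161 CPM on side 1 and 165 to 168 CPM on side 2. The sides are a description read from these counts, and 22.5% of all genes tested were higher on side 1 without overlap and 23.6% lower, and with 7 members the counts of 3 and 1 cannot be read against these shares. APOBEC3D, APOBEC3G and APOBEC3H overlapped between the sides. APOBEC3C was also lower in the IRF4-overexpressing group within both sides (log2 ratio -0.39 and -1.31). Whether axis or group weighed more was not tested.

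APOBEC3A (Entrez 200315), a strong deaminase of monocytes and macrophages induced by interferon, was listed at 0 in all 6 libraries and was not tested. A sum of 0 counts allows up to 0.0251 CPM over the IRF4-overexpressing group and 0.0290 CPM over the control group, a limit of 3 counts per group that covers counting error only. The table also lists APOBEC3A_B, the hybrid gene of a common deletion between APOBEC3A and APOBEC3B, looked at after the zeros were seen. It had 11, 1 and 3 counts in IRF4-overexpressing replicates 1, 2 and 3, against 2, 2 and 4 in control replicates 1, 2 and 3. How reads that fit several of these entries were counted is not given in the sources used here, so a part of that in the zeros of APOBEC3A was not tested. Of 10 myeloid markers, FCGR3A, S100A9 and MPO were at 0 in every library, and the list summed to 5.64 to 9.16 CPM in IRF4-overexpressing libraries and 3.06 to 3.31 CPM in control libraries. Of the 4 myeloid markers tested, ITGAM rose (log2 fold change 1.92, adjusted p by edgeR = 0.00256). CSF1R was at 4.07, 1.22 and 1.39 CPM in replicates 1, 2 and 3 of the IRF4-overexpressing group, against 0.324, 0.521 and 0.438 CPM in replicates 1, 2 and 3 of the control group. Its groups did not overlap, as for 13.5% of all genes tested that were higher, and it did not pass (log2 fold change 2.38, SE 0.56, adjusted p by edgeR = 0.0846). CD68 and LYZ, the other markers tested, had log2 fold changes of 0.20 and 0.18 and groups that overlapped (adjusted p by edgeR = 0.623 and 0.667). The number of myeloid markers called higher was 2 by DESeq2, 1 by limma-voom, 2 with the axis term and 2 without IRF4-overexpressing replicate 1. The last 2 fits called 2606 and 2436 genes higher in the whole table. Of 10 T and NK cell markers, 1 was tested and 0 were called. They summed to 0.864 to 0.953 CPM in IRF4-overexpressing libraries and 0.446 to 0.957 CPM in control libraries, with CD2, CD8A and GNLY at 0. Of the 7 epithelial and kidney markers 0 passed the filter, and they summed to 0.394 to 0.945 CPM in IRF4-overexpressing libraries and 0.124 to 0.274 CPM in control libraries, with EPCAM, KRT18 and KRT19 at 0. The part of such cells in the APOBEC3 values was not tested.

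Sequence shared between the genes sets how far their single values can be trusted. Of the distinct stretches of 50 bases in each gene's coding transcripts (GENCODE 29), 0% were found in a transcript of another gene for APOBEC3H and UNG, and 1.16% for APOBEC3C. The share was 19.1% for APOBEC3G and 21.4% for APOBEC3F, part of which they share with each other (16.9% of the stretches of APOBEC3G and 10.1% of those of APOBEC3F). It was 36.5% for APOBEC3A and 38.7% for APOBEC3B, mostly with each other (29.01% of the stretches of APOBEC3A and 25.5% of those of APOBEC3B). For APOBEC3D it was 85.8%, and the GENCODE gene AL022318.4 alone held 81.1% of its stretches. The values of APOBEC3A, APOBEC3B, APOBEC3D, APOBEC3F and APOBEC3G are thus uncertain to the extent that reads from shared stretches were split, which was not tested, and APOBEC3H shares the least in the family.

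UNG (Entrez 7374) was at 140.4, 165 and 165 CPM in replicates 1, 2 and 3 of the IRF4-overexpressing group, against 168, 161 and 152 CPM in replicates 1, 2 and 3 of the control group. The groups overlapped, with IRF4-overexpressing replicate 1 lowest and control replicate 1 highest. The means were 157 ± 14.1 CPM in IRF4-overexpressing libraries and 160.3 ± 8.29 CPM in control libraries (SD, n = 3 each; log2 fold change -0.03, SE 0.10, adjusted p by edgeR = 0.847). The 95% interval of the fold change, 0.828 to 1.15, bounds the difference more narrowly than for any APOBEC3 gene tested. The counts do not separate the nuclear and mitochondrial forms of UNG, which start at different promoters.

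Levels were compared between genes per kilobase of the width given in the table. UNG stood first in both groups, at 66.2 ± 5.94 CPM per kilobase in IRF4-overexpressing libraries and 67.8 ± 3.50 in control libraries. In IRF4-overexpressing libraries APOBEC3G followed at 7.49 ± 1.04 CPM per kilobase, then APOBEC3C at 2.65 ± 1.86 and APOBEC3H at 0.672 ± 0.126, with no overlap between these neighbours. APOBEC3D (0.379 ± 0.0922), APOBEC3B (0.336 ± 0.383) and APOBEC3F (0.263 ± 0.16) came next and overlapped as neighbours. In control libraries APOBEC3G at 5.53 ± 0.300 CPM per kilobase and APOBEC3C at 5.47 ± 1.36 overlapped. They were followed by APOBEC3D (0.384 ± 0.0250), APOBEC3F (0.278 ± 0.122) and APOBEC3B (0.249 ± 0.0639), which overlapped as neighbours, and then by APOBEC3H at 0.0921 ± 0.0417 (SD, n = 3 in each group). By group mean APOBEC3H thus stood above APOBEC3B, APOBEC3D and APOBEC3F in IRF4-overexpressing libraries and below them in control libraries. In IRF4-overexpressing replicate 1, however, APOBEC3B was above APOBEC3H, at 0.775 against 0.585 CPM per kilobase.

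The summed level of the APOBEC3 genes per kilobase was 10.8 to 13.4 CPM in IRF4-overexpressing libraries and 10.7 to 13.0 CPM in control libraries, so the ranges nearly coincided. Within this sum APOBEC3G made up 64.8% ± 15.6 in IRF4-overexpressing libraries and 46.6% ± 7.47 in control libraries. APOBEC3C made up 21.5% ± 12.6 in IRF4-overexpressing libraries and 45.1% ± 7.08 in control libraries (SD, n = 3 each). The share of APOBEC3C was 11.3% to 35.5% in IRF4-overexpressing libraries and 37.2% to 51.0% in control libraries, without overlap but also without a test. Its level itself overlapped between groups, and the sum was 13.4 in IRF4-overexpressing replicate 1 against 10.7 in control replicate 1. The share of APOBEC3H was 4.38% to 7.27% in IRF4-overexpressing libraries and 0.368% to 1.22% in control libraries. APOBEC3H had passed the filter only through the IRF4-overexpressing group. These shares are of RNA, and say nothing of protein or of enzyme activity.

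**Figure D3:**
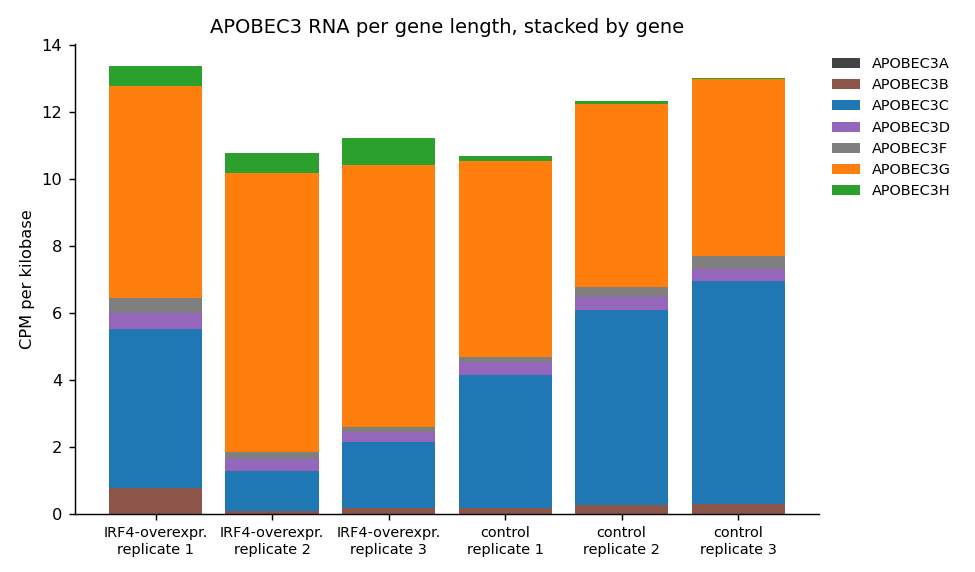
CPM per kilobase of deposited gene width (vertical axis) of the APOBEC3 genes, stacked, in each of the 6 libraries (horizontal axis, IRF4-overexpressing left, control right). The totals lie between 10.7 and 13.4 CPM per kilobase, and APOBEC3G with APOBEC3C makes up most of each bar.

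**Figure D4:**
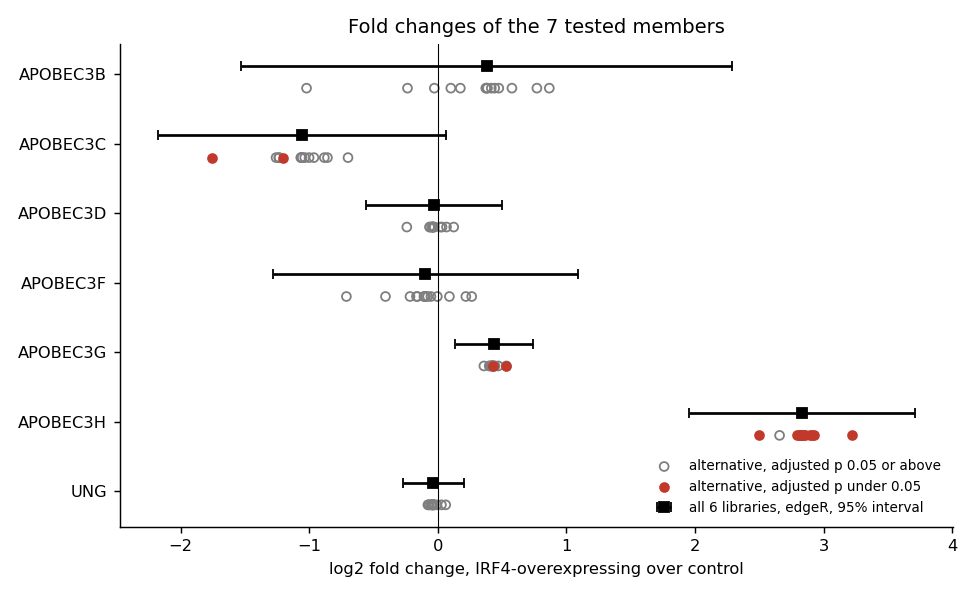
Log2 fold change, IRF4-overexpressing over control (horizontal axis), of the 7 tested members: black squares give the edgeR value of all 6 libraries with its 95% interval, and circles the values under other settings or without a library, red where the adjusted p was under 0.05. APOBEC3H, which passed the filter only through the IRF4-overexpressing group, lies between 2.50 and 3.22 in all of these fits that tested it. UNG lies between -0.08 and 0.06.

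The profile most like that of each member with a mean of at least 5 CPM was looked for among 9491 genes, by the root-mean-square difference of mean-centred log2 CPM over the 6 libraries. For APOBEC3G the nearest were DNAJC1, a chaperone of the endoplasmic reticulum (0.020, at 25.5 CPM in IRF4-overexpressing and 19.2 CPM in control libraries on average), and CYB5D2 (0.025, at 9.32 and 6.76 CPM). For UNG they were LSM2, a subunit of a complex that binds small nuclear RNA (0.012, at 42.7 CPM in IRF4-overexpressing and 43.1 CPM in control libraries), and LPXN, an adaptor of adhesion signalling (0.016, at 195 CPM in both groups). APOBEC3H and APOBEC3C were below 5 CPM.

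APOBEC3 genes are part of the antiviral interferon response, and 13 of 23 tested genes of a list of restriction factors and antiviral interferon genes rose and 0 fell. The list held 30 genes, and those not tested were too low for the filter, with 2 at 0 in every library. The median log2 fold change of the 23 was 1.71, against 0.01 over all genes tested, of which 2.98% were called higher and 0.182% lower. Of the 13, IFITM1, MX2, GBP2 and GBP5 had every control library under the 0.271 CPM of the filter (at most 0.149 CPM) and, like APOBEC3H, were tested only through the IRF4-overexpressing group. Without these 4, 9 of 19 tested genes rose, with a median log2 fold change of 0.84. The list had been written with the rise of antiviral interferon genes in these libraries known, and is no independent evidence of that rise. Whether interferon itself played a part was not tested. Those with the smallest adjusted p were IFIT1, IFIT2 and IFIT3, which sense or help to sense viral RNA, with log2 fold changes of 4.15, 2.55 and 3.24, and TRIM22, a ubiquitin ligase that restricts HIV (adjusted p by edgeR = 8.94e-04, 8.94e-04, 5.38e-04 and 9.40e-04). TRIM22 was at 43.0, 57.0 and 56.4 CPM in replicates 1, 2 and 3 of the IRF4-overexpressing group, against 12.5, 11.5 and 10.4 CPM in replicates 1, 2 and 3 of the control group. SAMHD1, named after its value was seen, hydrolyses dNTPs and blocks reverse transcription; it had a log2 fold change of 0.22 and did not pass (adjusted p by edgeR = 0.217). The log2 fold change of APOBEC3H, 2.83, lay within the range of the 13 genes that rose. That of APOBEC3G, 0.44, lay within the range of the genes of the list that were not called, -0.64 to 0.84. Both ranges were set by the calls, so neither tells whether these members go with the list. Without single libraries 9 to 16 of the list rose, and 4 fell without IRF4-overexpressing replicate 1. With the replicate number as a block 0 rose, and with the axis term 17 rose and 3 fell. Of all genes tested, 2436 were higher and 3071 lower without IRF4-overexpressing replicate 1, and 2606 and 3295 with the axis term.

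The genes that flank the APOBEC3 cluster had 0 of 7 called (1 at an unadjusted p under 0.05; 0 by DESeq2 and 0 by limma-voom). RPL3, a ribosomal protein gene, and DNAL4, a dynein light chain gene, had the smallest p, with log2 fold changes of -0.44 and 0.26. Of 3 tested flanking genes of UNG 0 were called (1 at an unadjusted p under 0.05; 0 by DESeq2 and limma-voom), among them ALKBH2, a DNA demethylase gene, and USP30, a mitochondrial deubiquitinase gene, at 0.46 and -0.15. Of 7 tested genes of other cytidine and adenosine deaminases 0 were called (1 at an unadjusted p under 0.05; 0 by DESeq2 and limma-voom). ADAT2, a tRNA deaminase gene, had a log2 fold change of 0.30 and DCTD, the deoxycytidylate deaminase gene, 0.16. APOBEC1 and CDA, likewise named after their values were seen, were listed at 0 in all 6 libraries.

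Uracil and base excision repair, the pathway that UNG opens, had 0 of 21 tested genes called (2 at an unadjusted p under 0.05; 0 by DESeq2 and limma-voom), with a median log2 fold change of -0.09. PARP1, which senses DNA breaks, was at 844 ± 167 CPM in IRF4-overexpressing libraries and 1125 ± 62.2 CPM in control libraries (SD, n = 3 each; log2 fold change -0.41, adjusted p by edgeR = 0.203). TDG, a glycosylase for thymine and uracil in mismatches with guanine, was at 105 ± 1.20 CPM in IRF4-overexpressing libraries and 123 ± 6.68 CPM in control libraries (SD, n = 3 each; log2 fold change -0.22, adjusted p by edgeR = 0.223). Neither gene overlapped between groups, which also held for 11.9% of all genes tested that were lower, and neither passed. With the axis term 3 of this list were higher and 8 lower, and without IRF4-overexpressing replicate 1 the numbers were 3 and 7. Over all genes tested, 2606 of 12079 were higher and 3295 lower with the axis term. Without IRF4-overexpressing replicate 1 the numbers were 2436 and 3071 of 12226. Whether the list differs from these shares was not tested.

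In mismatch repair 0 of 8 genes were called (0 at an unadjusted p under 0.05; 0 by DESeq2 and limma-voom), and the mismatch sensor gene MSH3 and the repair gene PMS1 had log2 fold changes of -0.19 and 0.28. Of 10 translesion polymerase genes 0 were called (1 at an unadjusted p under 0.05; 0 by DESeq2 and limma-voom), with POLI at 0.28 and POLH, the polymerase that copies past ultraviolet damage, at -0.13. In the supply of pyrimidine nucleotides, which sets how much uracil enters DNA, 0 of 11 were called by edgeR (3 at an unadjusted p under 0.05; 1 lower by DESeq2 and 0 by limma-voom). RRM2, the small subunit of ribonucleotide reductase, was at 277, 178 and 175 CPM in replicates 1, 2 and 3 of the IRF4-overexpressing group, against 327, 326 and 342 CPM in replicates 1, 2 and 3 of the control group. Its groups did not overlap, as for 11.9% of all genes tested that were lower, and it did not pass (log2 fold change -0.66, SE 0.18, adjusted p by edgeR = 0.133). TK1, thymidine kinase, had a log2 fold change of -0.51 (adjusted p by edgeR = 0.146).

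Of 7 genes for proteins that bind single-stranded DNA, the substrate of APOBEC3 enzymes, 0 were called by edgeR (1 at an unadjusted p under 0.05; 1 higher by DESeq2 and 0 by limma-voom). NABP1 was at 54.4 ± 1.36 CPM in IRF4-overexpressing libraries and 40.5 ± 3.30 CPM in control libraries (SD, n = 3 each; log2 fold change 0.42, adjusted p by edgeR = 0.0681), and passed with library sizes alone. RPA1, the large subunit of replication protein A, had -0.91 and groups that overlapped. In the list of G1/S and replication genes, background for UNG because its RNA is known to peak around S phase, 0 of 22 were called (4 at an unadjusted p under 0.05; 0 by DESeq2 and limma-voom). The helicase subunit gene MCM4 and the chromatin assembly gene CHAF1B had log2 fold changes of -0.33 and -0.42. Without IRF4-overexpressing replicate 1, where 2436 genes were higher and 3071 lower in the whole table, calls appeared in these lists too. The numbers higher and lower were 0 and 2 for the other deaminases, 3 and 1 for mismatch repair, 2 and 0 for translesion polymerases and 2 and 4 for nucleotide supply. They were 3 and 1 for single-strand binding, 4 and 5 for G1/S genes, 1 and 3 for the APOBEC3 flanks and 1 and 1 for the UNG flanks.

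**Figure D5:**
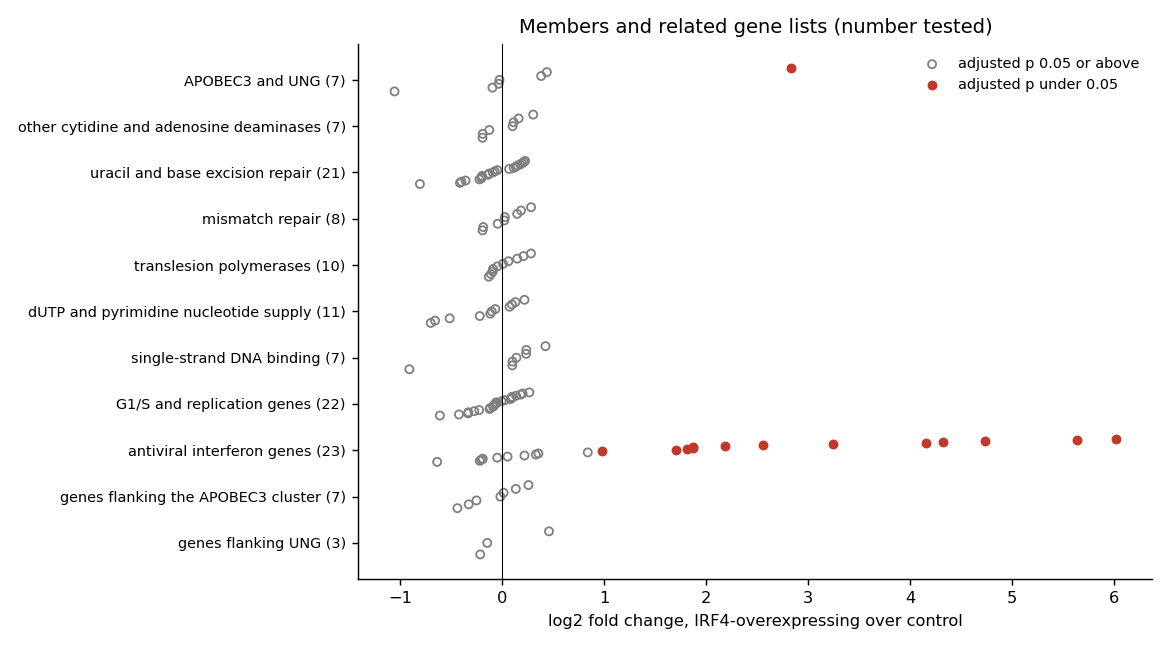
Log2 fold change, IRF4-overexpressing over control (horizontal axis), of each tested gene of the APOBEC3 and UNG set and of 10 related lists (rows, number tested in brackets), with genes at an edgeR adjusted p under 0.05 in red. Called genes are seen for APOBEC3H and for 13 of the 23 antiviral interferon genes, of which APOBEC3H and 4 of the 13 were tested only through the IRF4-overexpressing group.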

How the data were processed

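The authors deposited raw read counts per gene for 6 stranded, poly(A)-selected RNA-seq libraries, as whole numbers without scaling or pooling, and a further deposited column with 1 width per gene in bases. Other: the width has no unit beyond its header, and the authors' rule for it is not given. Per the submitters' processing notes the builds were mm9 and hg19. The aligner, counting tool, annotation and strand setting are not given in the sources used here. The deposited table heads the control columns WT. Of 23459 rows, 23308 matched a symbol in RefSeq's gene table (GRCh38.p14), from which no gene coordinates are given. Totals were 27681979 to 46210702 counts.

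Testing used edgeR 4.0.16 under R 4.3.3 with TMM scaling, filterByExpr, group as the sole term and a quasi-likelihood F-test (two-sided) for 12079 genes, called at a Benjamini-Hochberg adjusted p under 0.05. SE is the absolute log2 fold change over the root of F, and 95% intervals use its degrees of freedom. The alternatives covered scaling (median-ratio size factors, or library sizes alone), other filters, DESeq2 1.42.0, limma-voom (limma 3.58.1), the replicate number as a block, the library axis score, IRF4 left out, and each library left out. The test was run on simulated counts first. These had the same dispersion for every gene and no library axis, so they do not gauge the test's errors in these libraries. Same-numbered replicates did not deviate together. All replicate pairs of a group differed by more than sampling noise (chi-square per gene 6.49 or more). The genes and lists were chosen with earlier results of these data known. Named are IRF4, the 8 members, up to 4 called or else 2 genes of smallest p per list, and the 2 nearest profiles. SAMHD1, APOBEC1, CDA, APOBEC3A_B, CSF1R, CD68, LYZ, IFITM1, MX2, GBP2, GBP5 and markers at 0 were named after their values were seen. Promoter sequences are from RefSeq (GRCh38.p14). Figures were drawn with matplotlib 3.10.9.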

Additional observations from a re-analysis of the deposited data

How the results depend on the processing

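The direction of APOBEC3C, APOBEC3G and APOBEC3H was kept under every alternative that tested them. APOBEC3H passed the filter only through the IRF4-overexpressing group, so its direction could hardly have turned and is no support. For APOBEC3B, APOBEC3D, APOBEC3F and UNG, of which 0 passed in any fit, the sign changed: APOBEC3B to -0.24 with limma-voom and -0.027 with the axis term, APOBEC3D to 0.068 and UNG to 0.062 with library sizes alone. That scaling put the median of all genes tested at 0.10 (log2), above each of those 2 values. Without single libraries APOBEC3B ran from -1.02 to 0.87, APOBEC3D from -0.24 to 0.12, APOBEC3F from -0.71 to 0.26 and UNG from -0.077 to 0.029. The cause was not tested.

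Members called higher numbered 0 with at least 1 CPM in 3 libraries (APOBEC3H untested), 2 with the axis term and 0 to 2 without single libraries, and lower ones 1 with the axis term and 0 to 1 without single libraries. Over all genes, higher and lower calls numbered 577 and 175 with DESeq2, 2606 and 3295 with the axis term, 503 and 13 with library sizes alone, and 120 to 2436 and 3 to 3071 without single libraries, the upper ends without IRF4-overexpressing replicate 1.

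The replicate block gave 3 higher and 0 lower genes and 0 members (1352 genes at an unadjusted p under 0.05), with APOBEC3H at 2.83 (edgeR adjusted p = 0.165). Same-numbered libraries correlated at -0.65, -0.22 and -0.47 in their deviations from the group means, so the number is no sign of pairing. Depth limits the low genes: APOBEC3H had 11 counts over the control group, and APOBEC3B had as few as 4 in a library.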
